A study of Mus musculus with 16 samples.

Results

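The genes of glycolysis and of glycogen metabolism were followed in *gastrocnemius* muscle of mice with a CTG-repeat transgene and of control mice, after vehicle or AICAR. The 44 genes were taken by name as members of these pathways, not by a threshold on their measured values. The list was, however, drawn up with earlier results of these data known. All 44 were found among the 24454 genes of the count table. All 44 also passed the filter on low counts that left 15487 genes for testing. HSALR mice are homozygous for line LR20b, in which a human skeletal actin transgene carries a long CTG repeat and is transcribed in skeletal muscle only, and they model myotonic dystrophy type 1. Their controls were mice of the FVB/N background strain, which do not carry the transgene. All mice were 3 months old. AICAR, which activates the AMP-activated protein kinase AMPK, was given at 500 mg/kg for 7 days, and the other mice received vehicle. There were 5 HSALR mice in each treatment group and 3 FVB mice in each, with a separate library per mouse from part of the powdered muscle, and since HSALR mice come from 1 line, the repeat and the site of its insertion cannot be told apart.

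Glycolysis splits glucose into pyruvate and yields ATP without oxygen, and fast muscle fibres depend on it during bursts of work. Phosphofructokinase sets the pace of the upper steps, and the 4 PFKFB enzymes make and remove fructose-2,6-bisphosphate, a strong activator of phosphofructokinase. Pyruvate becomes lactate through lactate dehydrogenase, and lactate crosses the membrane through monocarboxylate transporters. Glycogen is the glucose store of muscle. Glycogenin, UDP-glucose, glycogen synthase and branching enzyme build it, phosphorylase and its kinase break it down, and protein phosphatase 1, held on the particle by its glycogen-targeting subunits, switches the balance towards storage. AMPK acts in muscle as a sensor of energy shortage and is known to phosphorylate glycogen synthase.

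Between 64890014 and 81987726 reads per library were counted on genes. Levels are given as normalised CPM, that is, the count of a gene relative to the TMM-scaled total of its library on the usual CPM scale, in the order of the mouse numbers. Log2 changes, standard errors (SE) and adjusted p-values come from edgeR's quasi-likelihood test over all 16 libraries, with Benjamini-Hochberg adjustment over the 15487 genes, and a gene was called when its adjusted p was under 0.05. In bulk muscle, fewer cells of a type and less RNA per cell cannot be told apart. Markers of skeletal muscle were abundant in every library, and the 4 adult myosin heavy chain genes summed to between 47240 and 86650 CPM. Myosin composition differed with genotype: *Myh1*, the myosin of type IIx fibres, was higher in HSALR mice by 1.52 (log2) after vehicle, and myoglobin (*Mb*) was higher by 0.79. *Myh7*, the slow myosin, was lower in HSALR mice after vehicle (log2 change -1.37, SE 0.36, adjusted p = 0.0113; 1506 to 4812 CPM in FVB and 888 to 1243 CPM in HSALR mice), and *Myh4*, the fastest one, was not called (log2 change -0.34, SE 0.18, adjusted p = 0.186). After AICAR, *Myh1* and *Mb* were higher by 1.499 and 1.18, *Myh4* was lower (log2 change -0.67, SE 0.18, adjusted p = 0.0177) and *Myh7* was not called (log2 change -0.68, SE 0.37, adjusted p = 0.199). In FVB mice, S450 (vehicle) stood apart with 4812 CPM of *Myh7* and S449 (AICAR) with 77356 CPM of *Myh4*. Markers of skin were present in 6 libraries, in which 8 epidermal genes summed to over 5 CPM: 4 of the 5 vehicle-treated HSALR mice, 1 FVB mouse after vehicle and 1 after AICAR. The 8 markers summed to between 0.612 and 187 CPM in vehicle-treated HSALR mice and to between 0.242 and 0.371 CPM in AICAR-treated HSALR mice, and 8 of 8 were called lower after AICAR in HSALR mice. Of 4 endothelial markers, 4 were called lower in HSALR than in FVB mice after vehicle and 2 after AICAR, and 2 were called higher with AICAR in HSALR mice. Their summed level was 234 to 261 CPM in FVB and 156 to 204 CPM in HSALR mice after vehicle, and 241 to 262 CPM and 195 to 213 CPM after AICAR. Of 5 leukocyte markers, 2 were called higher in HSALR mice after vehicle and 1 lower with AICAR in HSALR mice, at 108 to 149 CPM in FVB and 128 to 173 CPM in HSALR mice after vehicle and 133 to 228 CPM in HSALR mice after AICAR. Of 4 fibroblast markers, 2 were called lower with AICAR in HSALR mice, at 1133 to 1553 CPM after vehicle and 893 to 1199 CPM after AICAR. In FVB mice, 5 red blood cell markers summed to 1219 to 3122 CPM after vehicle and 514 to 866 CPM after AICAR, with none called. HSALR mice had 273 to 2832 CPM and 475 to 1037 CPM of them. Over all genes, longer genes tended to be lower in HSALR mice after vehicle (Spearman's rho between gene length and log2 change -0.26 over 15487 genes, as a description). The part of fibre composition, epidermal RNA, these other cell types and gene length in the results below was not tested, and the calls lost without the 6 libraries with epidermal markers are named with their values after the counts below. Those leave only S451 in the vehicle-treated HSALR group, whose spread is then taken from the other groups.

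Together the 44 genes took between 4.02% and 4.88% of all counts in vehicle-treated mice and between 5.57% and 6.26% in AICAR-treated mice, and these ranges did not overlap in either genotype. The medians were 4.63% in FVB mice and 4.61% in HSALR mice after vehicle, against 5.69% and 6.03% after AICAR. This sum is weighted towards abundant genes, and a large part of its rise lay in *Aldoa*. The mean of *Aldoa* was 13530 CPM after vehicle and 19730 CPM after AICAR in FVB mice. In HSALR mice it was 13800 and 23340 CPM, and its mapping is uncertain, as given below. Levels per length were compared as mean CPM per kilobase of the gene model. In vehicle-treated FVB mice, *Aldoa* (aldolase A) was the highest of the 44 at 7416 CPM per kilobase, followed by *Eno3* (muscle enolase) at 3004, *Pygm* (muscle glycogen phosphorylase) at 1959, *Pgam2* (muscle phosphoglycerate mutase) at 1721 and *Ldha* (lactate dehydrogenase A) at 1270.0. With *Tpi1* (triosephosphate isomerase), *Pfkm* (muscle phosphofructokinase) and *Pkm* (pyruvate kinase) these made 8 genes at 856 CPM per kilobase or more in every group, and the next highest group mean of any member was that of *Ppp1r3c*, 516 CPM per kilobase in AICAR-treated FVB mice.

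*Gapdh*, which encodes glyceraldehyde-3-phosphate dehydrogenase, was the exception among the abundant steps, at only 13.9 CPM per kilobase in vehicle-treated FVB mice, against 1098 for *Tpi1*, the step before it. Of the 50-base windows of its longest coding transcript, 82.5% also occurred, base for base, in transcripts of other genes, and 69.5% occurred in 10 or more of them. The authors' mapping allowed a read at most 10 places in the genome and reported 1 of equally good ones, so the counts of *Gapdh* are uncertain and its level is not compared further with other genes. Every window of *Aldoa* was found in other annotated genes, and the share was 72.2% for *Eno1*, 68% for *Pgk1*, 41.5% for *Pgam1* and 34.4% for *Pkm*. In each case fewer than 10 other genes were matched. The share was also 34.5% for *Phkg2*, 27% for *Ldhb* and 25.3% for *Gpi1*, with some *Gpi1* windows in up to 80 other genes. Genes were told apart by annotation and not by position. A match may thus be a separate copy or an annotation of the same place, and how reads were assigned is not known. For *Pfkfb3* the share was 0.63%, and for *Pfkm*, *Pfkfb1*, *Pfkfb4*, *Fbp2*, *Eno3* and *Slc16a3* it was 0. Some members overlap another counted gene, among them *Pfkm* (Senp1), *Pfkfb1* (Apex2), *Eno3* (Pfn1), *Slc16a3* (Csnk1d), *Gys1* (Ruvbl2) and *Ugp2* (Vps54), and whether counting used strand is not given in the sources used here.

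Of the 44 genes, 18 were called between HSALR and FVB mice after vehicle, 7 higher and 11 lower, where 26.9% of all genes were called, 15.4% higher and 11.5% lower. After AICAR 12 were called, 6 in each direction, where 21.8% of all genes were called, 12.2% higher and 9.64% lower. AICAR changed 20 members in HSALR mice, 18 of them upwards and 2 downwards, where 26.6% of all genes were called, 13.7% higher and 13.0% lower. In FVB mice AICAR changed 16 members, all upwards, where 13.2% of all genes were called, 8.4% higher and 4.77% lower. The median log2 change over the 44 genes was -0.098 and -0.061 for genotype after vehicle and AICAR, against 0.0097 and 0.0037 over all genes. For AICAR it was 0.14 in HSALR and 0.18 in FVB mice, against -0.02 and -0.0084 over all genes. Nearly all AICAR calls were upward, whereas genotype calls went both ways.

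Without the 6 libraries with epidermal markers, calls were fewer among members and among all genes. For genotype after vehicle 8 members were called, where 5.8% of all genes were called, and 6 of the 8 were among the 18 above, namely *Pfkfb3*, *Gpd2*, *Gpd1*, *Slc16a3*, *Epm2a* and *Ppp1r3a*. The other 12 calls were lost. Their log2 changes were then 0.14 for *Fbp2*, 0.13 for *Pfkfb1*, -0.0048 for *Pfkfb4*, 0.0041 for *Pgk1*, 0.10 for *Gapdh* and -0.15 for *Ldhb*, each closer to 0 than with all libraries. They were -0.61 for *Ppp1r3b*, 0.33 for *Stbd1*, -0.27 for *Pfkl*, 0.20 for *Gys1*, -0.20 for *Gyg* and -0.47 for *Gaa*. For genotype after AICAR 11 members were called, where 15.5% of all genes were, and the calls lost were *Ldhb* (-0.51), *Pfkl* (-0.30), *Gapdh* (0.31) and *Phka2* (0.22). AICAR changed 15 members in HSALR mice, where 5.77% of all genes were called, and all 15 were among the 20 above. The calls lost were *Pfkfb3* (2.07), *Pfkfb4* (-0.033), *Eno1* (-0.096), *Eno3* (0.50) and *Epm2a* (0.20), of which *Pfkfb4* and *Eno1* were closest to 0. In FVB mice it changed 9 members, where 4.47% of all genes were called, and all 9 were among the 16 above. The calls lost were *Ugp2* (0.42), *Aldoa* (0.50), *Pfkm* (0.34), *Pgam1* (0.43), *Gpd1* (0.41), *Gys1* (0.31) and *Eno3* (0.30). For AICAR-treated HSALR against vehicle-treated FVB mice 20 members were called, where 29.4% of all genes were, and 17 of them were among the 21 of the full data. The calls lost were *Aldoc* (-0.90), *Pygb* (-0.37), *Pgam2* (0.23) and *Phkg2* (0.27).

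**Figure D1:**
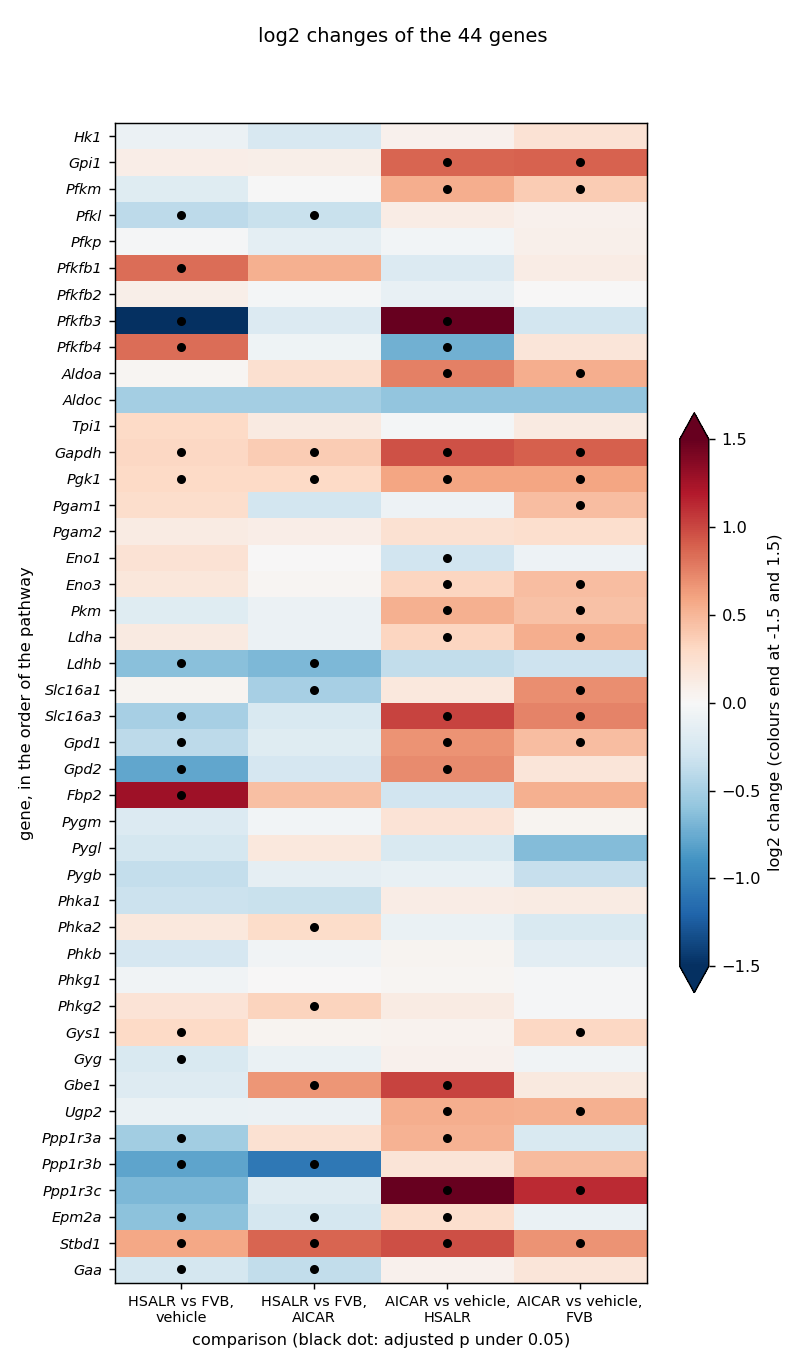
Log2 changes of the 44 genes, in pathway order from hexokinase (top) to lysosomal glucosidase (bottom), in 4 comparisons; red is higher in the first-named group, blue is lower, and a black dot marks an adjusted p under 0.05. The AICAR columns hold 18 and 16 higher calls, and the change of *Pfkfb3* has opposite signs in the columns of genotype after vehicle and of AICAR in HSALR mice. Both of these columns use the same vehicle-treated HSALR mice, so their signs are not independent.

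The largest genotype change of the 44 genes was in a PFKFB enzyme. *Pfkfb3* (chr2:11471430-11554071, minus strand, GRCm38.p6), the isoform with the strongest kinase over bisphosphatase activity, stood at 445.4, 504.2 and 649 CPM in the vehicle-treated FVB mice. In vehicle-treated HSALR mice it was 90.5, 139.7, 122, 42.2 and 115 CPM. Every HSALR mouse was below every FVB mouse, and the level fell to 0.191 of the control level (log2 change -2.39, SE 0.35, adjusted p = 0.000156). After AICAR, HSALR mice had 397, 659.8, 329.9, 275 and 249.6 CPM and FVB mice 278, 550.4 and 489 CPM. All 5 treated HSALR mice were above all 5 untreated ones (log2 change 1.91, SE 0.32, adjusted p = 0.000554), whereas the treated FVB mice overlapped with their controls (log2 change -0.28, SE 0.40, adjusted p = 0.697). The genotypes also overlapped after AICAR (log2 change -0.20, SE 0.35, adjusted p = 0.721). The difference between the 2 AICAR effects was 2.19 (SE 0.51), with an unadjusted p of 0.000608 and an adjusted p of 0.0637, so it was not called by edgeR. Without the 6 libraries with epidermal markers the genotype difference was -2.40 (SE 0.58, adjusted p = 0.0427) and the AICAR effect in HSALR mice 2.07 (SE 0.54, adjusted p = 0.055).

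*Pfkfb4* (chr9:108988272-109032236, plus strand) and *Pfkfb1* (chrX:150587445-150643878, plus strand), the isoforms first described in testis and in liver and muscle, moved the other way with genotype. *Pfkfb4* was 55.2, 55 and 39.8 CPM in FVB mice and 55.1, 69.2, 106, 93.8 and 122 CPM in HSALR mice after vehicle, where S451 lay within the FVB range and the other 4 above it (log2 change 0.84, SE 0.27, adjusted p = 0.0303). After AICAR it was 49.5, 45.8, 81.7, 37.5 and 55.7 CPM in HSALR mice, a fall that left the 2 groups overlapping (log2 change -0.72, SE 0.23, adjusted p = 0.0274), and 57.6, 44 and 68 CPM in FVB mice (log2 change 0.18, SE 0.29, adjusted p = 0.744). *Pfkfb1* was 54.8, 57.3 and 37.8 CPM in FVB mice and 61.6, 60.2, 70.1, 118 and 137 CPM in HSALR mice after vehicle (log2 change 0.84, SE 0.25, adjusted p = 0.0226). The groups did not overlap, and S458 and S459 had the highest values. After AICAR the levels were 54.7, 52.2 and 54.6 CPM in FVB and 64.1, 70.8, 94.5, 72 and 87 CPM in HSALR mice, which did not overlap but were not called (log2 change 0.53, SE 0.25, adjusted p = 0.143). *Pfkfb2*, the heart isoform, stayed within 21.9 to 24.1 CPM in vehicle-treated FVB mice and 20.3 to 26.4 CPM in vehicle-treated HSALR mice, and none of its log2 changes exceeded 0.12 in size. Without the 6 libraries with epidermal markers, the genotype difference was -0.0048 (SE 0.35, adjusted p = 0.996) for *Pfkfb4* and 0.13 (SE 0.19, adjusted p = 0.775) for *Pfkfb1*, so neither call was kept. In the same fit the AICAR effect on *Pfkfb4* in HSALR mice was -0.033 (SE 0.31, adjusted p = 0.966), against -0.72 with all libraries.

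*Fbp2* (chr13:62836884-62858400, minus strand) encodes muscle fructose-1,6-bisphosphatase, which works against phosphofructokinase and in muscle serves glycogen synthesis from lactate. It was 27.3, 35.7 and 13.6 CPM in FVB and 34.9, 83.4, 63.1, 58.7 and 69 CPM in HSALR mice after vehicle, 2.42-fold higher in HSALR mice (log2 change 1.27, SE 0.28, adjusted p = 0.00332). S451, at 34.9 CPM, lay within the FVB range, and the other 4 HSALR mice lay above it. S451 was also the only HSALR mouse of this group without epidermal markers, and without the 6 libraries the difference was 0.14 (SE 0.23, adjusted p = 0.796). After AICAR the levels were 40, 34.9 and 36.5 CPM in FVB mice and 43.3, 46.9, 43.5, 58.6 and 61.2 CPM in HSALR mice. These groups did not overlap, but the difference was not called (log2 change 0.45, SE 0.27, adjusted p = 0.247), and AICAR itself gave no call in either genotype.

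**Figure D2:**
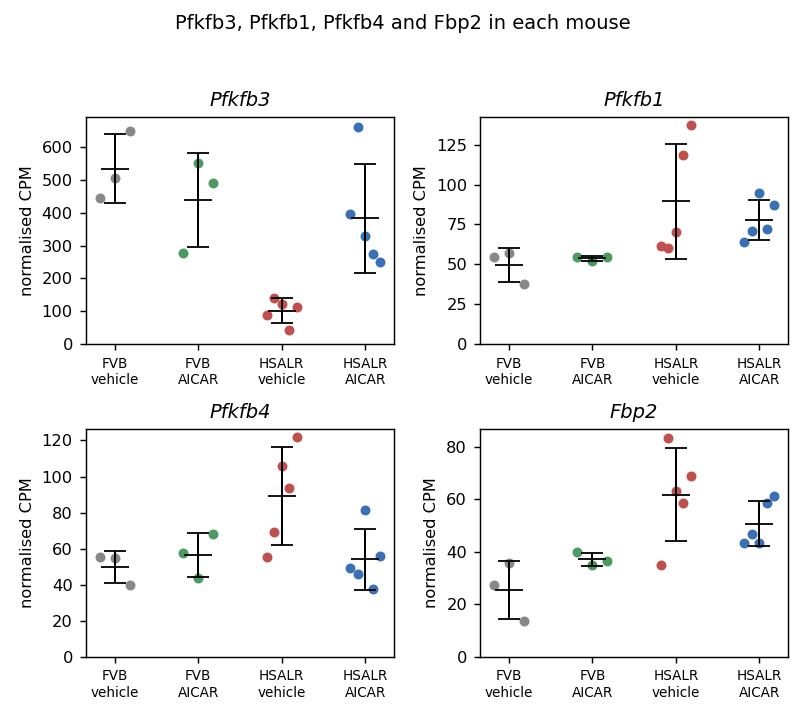
Normalised CPM of *Pfkfb3*, *Pfkfb1*, *Pfkfb4* and *Fbp2* in each mouse (points) of the 4 groups, with the mean and SD (bars; n = 3 for FVB and n = 5 for HSALR). Vehicle-treated HSALR mice hold the lowest *Pfkfb3* values, 42.2 to 139.7 CPM, and 4 of the 5 lie above both FVB groups for *Pfkfb4* and *Fbp2*.

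The promoters of *Pfkfb3*, which was lower in HSALR mice, and of *Fbp2* and *Pfkfb4* are shown so that their letters can be set side by side. *Fbp2* and *Pfkfb4* were higher with all libraries, and both differences shrank without those with epidermal markers, as given above. *Pfkfb1* changed by about as much as *Pfkfb4*, but its windows are not printed. They held no ACGTG, and the second held a GCGTG. Each is a window from 250 bases before to 50 bases after a RefSeq start (GRCm38.p6), 5′ to 3′ on the gene's strand. *Pfkfb3* has 2 such windows, at chr2:11553880-11554179 and chr2:11502041-11502340, *Fbp2* has 1 at chr13:62858351-62858650 and *Pfkfb4* has 1 at chr9:108991652-108991951. Capitals mark ACGTG and GCGTG on either strand. These are the cores of the hypoxia response element, and ACGTG is also part of the E-box CACGTG.
Pfkfb3 start 1: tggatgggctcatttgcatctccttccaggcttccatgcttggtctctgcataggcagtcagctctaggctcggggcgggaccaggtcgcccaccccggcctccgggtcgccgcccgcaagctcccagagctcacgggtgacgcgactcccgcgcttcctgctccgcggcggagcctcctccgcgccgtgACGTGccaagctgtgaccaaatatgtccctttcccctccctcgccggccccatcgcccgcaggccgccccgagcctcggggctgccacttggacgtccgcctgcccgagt
Pfkfb3 start 2: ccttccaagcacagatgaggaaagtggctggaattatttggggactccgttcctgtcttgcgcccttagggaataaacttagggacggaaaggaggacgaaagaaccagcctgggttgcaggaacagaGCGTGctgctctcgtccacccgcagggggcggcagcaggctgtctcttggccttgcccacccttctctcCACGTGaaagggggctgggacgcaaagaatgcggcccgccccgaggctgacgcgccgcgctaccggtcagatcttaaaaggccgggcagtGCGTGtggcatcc
Fbp2: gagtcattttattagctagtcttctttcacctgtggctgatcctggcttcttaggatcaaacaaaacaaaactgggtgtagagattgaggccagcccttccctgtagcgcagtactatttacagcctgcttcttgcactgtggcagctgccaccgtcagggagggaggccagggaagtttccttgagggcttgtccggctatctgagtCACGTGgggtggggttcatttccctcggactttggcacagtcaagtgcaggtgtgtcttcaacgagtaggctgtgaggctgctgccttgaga
Pfkfb4: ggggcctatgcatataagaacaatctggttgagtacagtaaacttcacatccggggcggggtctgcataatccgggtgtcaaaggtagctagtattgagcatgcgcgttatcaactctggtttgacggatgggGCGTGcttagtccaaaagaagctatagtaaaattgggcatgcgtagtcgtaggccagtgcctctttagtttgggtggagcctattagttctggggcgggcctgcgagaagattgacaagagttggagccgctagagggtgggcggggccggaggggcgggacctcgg
The first *Pfkfb3* window held 1 match to ACGTG. The second held a CACGTG, which counts once on each strand, and 2 matches to GCGTG. *Fbp2* held a CACGTG and no GCGTG, and *Pfkfb4* held 1 GCGTG and no ACGTG. The windows differed in base composition, with 69.7% and 61% G or C in *Pfkfb3*, 52.7% in *Fbp2* and 54.3% in *Pfkfb4*. Windows were listed for 42 of the 44 members, 61 in all. ACGTG occurred in 44.3% of these and in 19.6% of all 32851 windows, GCGTG in 54.1% and 32.4%, the general E-box CANNTG in 73.8% and 72.3%, TATAAA in 3.28% and 13.6%, TGACGTCA in 1.64% and 1.79%, and the MEF2 motif in 1.64% and 0.557%. CANNTG overlaps with ACGTG wherever CACGTG occurs, and all motifs were sought on both strands. A match describes letters only, and which start was used in these muscles was not analysed here.

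At the entry of the pathway, *Gpi1* (glucose-6-phosphate isomerase) responded to AICAR and not detectably to genotype. Its levels were 586, 591 and 535 CPM in vehicle-treated and 918, 979 and 1258 CPM in AICAR-treated FVB mice (log2 change 0.88, SE 0.11, adjusted p = 0.000147). In HSALR mice they were 539, 637, 577, 627 and 672 CPM and 1152, 1075, 1024, 1161 and 1159 CPM (log2 change 0.87, SE 0.083, adjusted p = 5.16e-06). Treated and untreated mice did not overlap in either genotype, and the 2 effects differed by -0.013 (SE 0.14). The genotype difference was 0.097 (SE 0.096) after vehicle. *Hk1*, the hexokinase of most tissues, stayed between 10.9 and 15.7 CPM in all 16 mice and was called in no comparison.

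Of the phosphofructokinase genes, *Pfkm* made up 99.366% or more of the summed level per length in every mouse. It rose with AICAR from between 2505 and 3131 CPM to between 4101 and 4422 CPM in HSALR mice (log2 change 0.54, SE 0.080, adjusted p = 0.000222) and from between 2854 and 3565 CPM to between 3868 and 4718 CPM in FVB mice (log2 change 0.38, SE 0.10, adjusted p = 0.026). *Pfkl*, the liver type, was lower in HSALR mice after vehicle (log2 change -0.39, SE 0.11, adjusted p = 0.0146) and after AICAR (log2 change -0.34, SE 0.11, adjusted p = 0.0347), at 8.82 to 15.5 CPM overall. *Pfkp*, the platelet type, was called in no comparison.

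From aldolase to pyruvate, *Aldoa*, *Pgk1*, *Eno3* and *Pkm* rose with AICAR in both genotypes, as did *Gapdh*, whereas *Tpi1* and *Pgam2* were not called for it. *Aldoa* was 13876, 14945 and 11757 CPM in FVB mice after vehicle and 19044, 18045 and 22103 CPM after AICAR (log2 change 0.54, SE 0.11, adjusted p = 0.00542). In HSALR mice it was 11895, 14529, 13347, 14169 and 15047 CPM and 25520.3, 25116, 21347, 22694 and 22045 CPM (log2 change 0.76, SE 0.087, adjusted p = 2.77e-05). Neither pair of groups overlapped. *Pgk1* (phosphoglycerate kinase) behaved alike and was in addition higher in HSALR mice. It was 283 to 333 CPM in FVB mice and 333 to 421 CPM in HSALR mice after vehicle (log2 change 0.30, SE 0.078, adjusted p = 0.0105), and 451.7 to 502 CPM and 542 to 620.5 CPM after AICAR (log2 change 0.30, SE 0.078, adjusted p = 0.012). Its AICAR effect was 0.59 (SE 0.086, adjusted p = 0.000624) in FVB and 0.60 (SE 0.067, adjusted p = 2.3e-05) in HSALR mice. The genotype difference after vehicle was 0.0041 (SE 0.10, adjusted p = 0.991) without the 6 libraries with epidermal markers, and it was also not called without S450 alone.

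*Gapdh*, with the uncertainty given above, was 21.3, 23.8 and 17.2 CPM in vehicle-treated and 37.5, 34.7 and 43.6 CPM in AICAR-treated FVB mice (log2 change 0.89, SE 0.12, adjusted p = 0.00035), and 24.3, 25.7, 24.6, 26.9 and 27.6 CPM and 54.8, 54.5, 42.7, 46.6 and 52.8 CPM in HSALR mice (log2 change 0.96, SE 0.093, adjusted p = 5.34e-06). The treated mice lay above the untreated ones in both genotypes. Its genotype difference was smaller, at 0.31 (SE 0.11, adjusted p = 0.0416) after vehicle and 0.38 (SE 0.11, adjusted p = 0.0198) after AICAR, and the first was lost in 11 of 20 other fits.

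*Pkm* rose from between 1960.4 and 2438 CPM to between 3003 and 3340.2 CPM in HSALR mice (log2 change 0.53, SE 0.073, adjusted p = 0.000123) and from between 2228 and 2715 CPM to between 3145 and 3766 CPM in FVB mice (log2 change 0.44, SE 0.094, adjusted p = 0.00684). *Eno3* rose by less, 0.32 (SE 0.10, adjusted p = 0.0316) in HSALR and 0.47 (SE 0.13, adjusted p = 0.0322) in FVB mice, and each of these calls was lost in 8 of the other fits. *Eno1*, the widely expressed enolase, was lower after AICAR in HSALR mice (log2 change -0.29, SE 0.093, adjusted p = 0.0321) at overlapping levels, 19.8 to 31.0 CPM over all mice. *Pgam1*, the widely expressed mutase, was called higher after AICAR in FVB mice (log2 change 0.47, SE 0.12, adjusted p = 0.0176) and not in HSALR mice (log2 change -0.074, SE 0.092, adjusted p = 0.596). The difference of the 2 effects was -0.54 (SE 0.15, adjusted p = 0.113) and was not called. *Tpi1*, *Pgam2* and *Aldoc* were called neither for genotype nor for AICAR within a genotype. *Aldoc* was at 0.122 to 0.598 CPM.

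**Figure D3:**
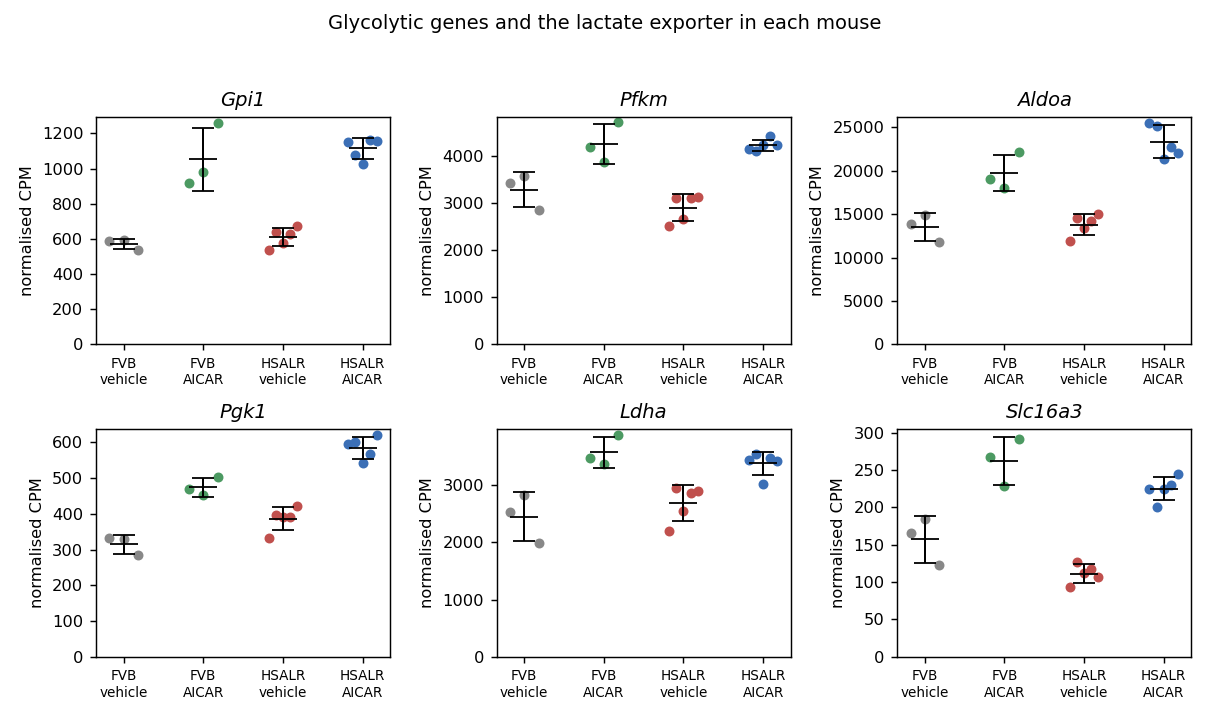
Normalised CPM of *Gpi1*, *Pfkm*, *Aldoa*, *Pgk1*, *Ldha* and *Slc16a3* in each mouse (points) of the 4 groups, with the mean and SD (bars; n = 3 for FVB and n = 5 for HSALR). In each of the 6 panels the AICAR-treated mice of a genotype lie above the vehicle-treated mice of that genotype.

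At the lactate step, AICAR raised *Ldha*, which favours lactate formation, from between 2203 and 2945 CPM to between 3016 and 3544 CPM in HSALR mice (log2 change 0.33, SE 0.097, adjusted p = 0.021) and from between 1991 and 2825 CPM to between 3374 and 3885 CPM in FVB mice (log2 change 0.55, SE 0.13, adjusted p = 0.00999). *Ldhb*, the isoform of oxidative fibres and heart, was lower in HSALR mice. After vehicle it was 298, 209 and 388 CPM in FVB mice and 229, 205, 153, 204 and 178 CPM in HSALR mice (log2 change -0.62, SE 0.21, adjusted p = 0.0421). After AICAR it was 264, 289.8 and 165 CPM and 117, 139.8, 147, 207 and 141 CPM (log2 change -0.67, SE 0.21, adjusted p = 0.0355). The genotypes overlapped in both treatments, and the highest FVB value was that of S450, the mouse with the most *Myh7*. The difference after vehicle was not called without any one of 6 of the 8 mice, S450 among them (-0.39), and neither was the difference after AICAR without any one of 6 of 8.

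*Slc16a3* (MCT4), the lactate exporter of fast fibres, rose with AICAR in both genotypes. It was 165, 184 and 122 CPM in FVB mice and 93.7, 126, 113, 118 and 106 CPM in HSALR mice after vehicle, lower in HSALR mice, with S450 (122 CPM) and S452 (126 CPM) overlapping (log2 change -0.50, SE 0.12, adjusted p = 0.00656), and this call was lost without S446. AICAR brought it to 268, 228 and 292 CPM (log2 change 0.74, SE 0.14, adjusted p = 0.0028) and 224, 201, 225, 231 and 245 CPM (log2 change 1.01, SE 0.11, adjusted p = 1.17e-05), without overlap with the untreated mice. After AICAR the genotypes overlapped (log2 change -0.22, SE 0.12, adjusted p = 0.2). *Slc16a1* (MCT1), the transporter of oxidative fibres, rose in FVB mice from 73.6, 71.8 and 81.6 CPM to 121, 120.5 and 125 CPM (log2 change 0.69, SE 0.12, adjusted p = 0.00146). In HSALR mice it was 75.9, 76, 71.8, 85.3 and 80.1 CPM and 76.1, 71.3, 83.4, 100.5 and 102 CPM (log2 change 0.15, SE 0.089, adjusted p = 0.222). After AICAR it was lower in every HSALR mouse than in every FVB mouse (log2 change -0.50, SE 0.10, adjusted p = 0.003). The difference of the AICAR effects was -0.54 (SE 0.15, adjusted p = 0.104).

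The glycerol phosphate shuttle, which carries electrons from glycolytic NADH to the mitochondria, uses a cytosolic and a mitochondrial dehydrogenase, and both were lower in vehicle-treated HSALR mice. *Gpd2*, the mitochondrial one, was 305, 339 and 231 CPM in FVB mice and 158, 186, 181, 146 and 178 CPM in HSALR mice, with no overlap (log2 change -0.78, SE 0.12, adjusted p = 0.000216). After AICAR it was 300.0, 307 and 384 CPM and 278, 271, 246, 277 and 311 CPM, a rise in HSALR mice (log2 change 0.71, SE 0.11, adjusted p = 0.000239) and no call in FVB mice (log2 change 0.18, SE 0.14, adjusted p = 0.406). *Gpd1*, the cytosolic one, was 797, 856 and 605 CPM in FVB and 446.1, 593, 618, 579 and 626 CPM in HSALR mice after vehicle, with S450 within the HSALR range (log2 change -0.40, SE 0.13, adjusted p = 0.0322). It rose to 1049.7, 907 and 1163 CPM (log2 change 0.47, SE 0.15, adjusted p = 0.046) and 904, 1009.8, 778, 891 and 991 CPM (log2 change 0.68, SE 0.11, adjusted p = 0.00055). The lower *Gpd2* was called in all 20 other fits, and the lower *Gpd1* in 16 of 20. The AICAR call of *Gpd1* in FVB mice was lost without any one of 4 of the 6 mice.

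None of the 3 phosphorylase genes was called for genotype or for AICAR within a genotype, and *Pygm*, the muscle form, was at 4919.6 to 6264 CPM in FVB and 4459.7 to 5395 CPM in HSALR mice after vehicle (log2 change -0.20, SE 0.10, adjusted p = 0.157). Of the 5 phosphorylase kinase genes, none was called for AICAR or for genotype after vehicle. After AICAR, *Phka2* (log2 change 0.28, SE 0.077, adjusted p = 0.0181) and *Phkg2* (log2 change 0.34, SE 0.075, adjusted p = 0.00533), the subunits known from liver, were higher in HSALR mice, both at low levels of 7.27 to 11.8 CPM over all mice. Their muscle counterparts *Phka1* and *Phkg1* were not called, with log2 changes of -0.33 (SE 0.14) and 0.0011 (SE 0.097). *Phka2* was lost in 3 of 20 other fits, and *Phkg2* in none.

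In glycogen synthesis, the branching enzyme *Gbe1* rose with AICAR in HSALR mice. It was 106, 108, 101, 102 and 97.3 CPM after vehicle and 222, 216, 207, 211 and 180.0 CPM after AICAR, with no overlap (log2 change 1.01, SE 0.14, adjusted p = 0.000104). FVB mice had 110.0, 78.9 and 165 CPM after vehicle, a wide spread in which S450 was highest, and 122, 142 and 128 CPM after AICAR (log2 change 0.15, SE 0.17, adjusted p = 0.619). After AICAR every HSALR mouse was above every FVB mouse (log2 change 0.66, SE 0.16, adjusted p = 0.00829). The AICAR effects differed by 0.86 (SE 0.22, adjusted p = 0.0868), which was not called. Without S450 the AICAR effect on *Gbe1* in FVB mice was called, at 0.47 (log2). *Ugp2*, which makes UDP-glucose, rose in both genotypes, from between 831 and 919 CPM to between 1098 and 1375 CPM in FVB mice (log2 change 0.53, SE 0.099, adjusted p = 0.00311) and from between 746 and 878 CPM to between 1081 and 1347 CPM in HSALR mice (log2 change 0.55, SE 0.077, adjusted p = 0.000154). *Gys1*, muscle glycogen synthase, was higher in HSALR mice after vehicle (log2 change 0.30, SE 0.089, adjusted p = 0.0218) and rose with AICAR in FVB mice (log2 change 0.31, SE 0.099, adjusted p = 0.0499). *Gyg*, glycogenin, was lower in HSALR mice after vehicle (log2 change -0.22, SE 0.070, adjusted p = 0.0282), with overlapping groups, and was not called between genotypes after AICAR. The AICAR call of *Gys1* was lost without any one of 5 of the 6 mice, and the genotype calls of *Gys1* and *Gyg* without either of 2 of the 8.

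Of the subunits that bring protein phosphatase 1 to glycogen, the 3 among the 44 genes all had negative log2 changes in vehicle-treated HSALR mice. Those of *Ppp1r3a* and *Ppp1r3b* were called and that of *Ppp1r3c* was not (log2 change -0.67, SE 0.25, adjusted p = 0.0595). *Ppp1r3c* (PTG) was 490.5, 641 and 780.2 CPM in FVB mice after vehicle and 1190.0, 1264 and 1692 CPM after AICAR (log2 change 1.12, SE 0.29, adjusted p = 0.0196). In HSALR mice it was 431, 589, 385, 394 and 199.9 CPM and 1358, 877, 1259, 1145 and 1415 CPM, a 3.03-fold rise without overlap and the second largest AICAR change of the 44 genes in HSALR mice after *Pfkfb3* (log2 change 1.60, SE 0.23, adjusted p = 0.000158). *Ppp1r3a*, the main muscle subunit, was lower in HSALR mice after vehicle, at 309 to 514 CPM against 518 to 606 CPM in FVB mice (log2 change -0.52, SE 0.12, adjusted p = 0.00418). AICAR raised it to between 537 and 652 CPM in HSALR mice (log2 change 0.53, SE 0.10, adjusted p = 0.00188), whereas treated FVB mice had 468 to 521 CPM (log2 change -0.23, SE 0.13, adjusted p = 0.274). The AICAR effects on it differed by 0.76 (SE 0.17, unadjusted p = 0.000434, adjusted p = 0.0555), short of a call by edgeR.

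*Ppp1r3b*, the subunit best known from liver, was at low levels and lower in HSALR mice in both treatments. After vehicle it was 4.95, 5.87 and 6.54 CPM in FVB and 3.56, 2.24, 4.31, 4.23 and 2.39 CPM in HSALR mice (log2 change -0.79, SE 0.23, adjusted p = 0.0181). After AICAR it was 7.21, 7.67 and 9.21 CPM and 3.1, 2.72, 5.14, 4.41 and 3.78 CPM (log2 change -1.07, SE 0.23, adjusted p = 0.00382). The genotypes did not overlap in either treatment, and the difference after vehicle was -0.69 and not called without S450.

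Among the genes of glycogen quality and turnover, *Stbd1*, which tethers glycogen to membranes, was higher in HSALR mice and rose with AICAR. It was 87.1, 87.6 and 72.8 CPM in FVB mice and 110.3, 145, 156, 109 and 97.9 CPM in HSALR mice after vehicle (log2 change 0.58, SE 0.15, adjusted p = 0.00942), and 138, 112 and 146 CPM and 268, 270.4, 219, 245 and 208 CPM after AICAR (log2 change 0.87, SE 0.15, adjusted p = 0.00091). The genotypes did not overlap in either treatment, and the difference after vehicle was 0.50 and not called without S450. Its AICAR effect was 0.68 (SE 0.17, adjusted p = 0.0139) in FVB and 0.97 (SE 0.13, adjusted p = 9.13e-05) in HSALR mice. *Epm2a*, which encodes the glycogen phosphatase laforin, went the other way with genotype, at 36.5 to 37.9 CPM in FVB and 20.7 to 26 CPM in HSALR mice after vehicle (log2 change -0.61, SE 0.078, adjusted p = 4.4e-05), a fall called in all 20 other fits. After AICAR it was 33 to 37.5 CPM and 26 to 31.6 CPM (log2 change -0.27, SE 0.078, adjusted p = 0.0251), a call lost without any one of 4 of the 8 mice. *Gaa*, the lysosomal glucosidase, was lower in HSALR mice after vehicle (log2 change -0.26, SE 0.090, adjusted p = 0.0457) and after AICAR (log2 change -0.37, SE 0.090, adjusted p = 0.00948), and the first of these calls was lost in 10 of 20 other fits.

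**Figure D4:**
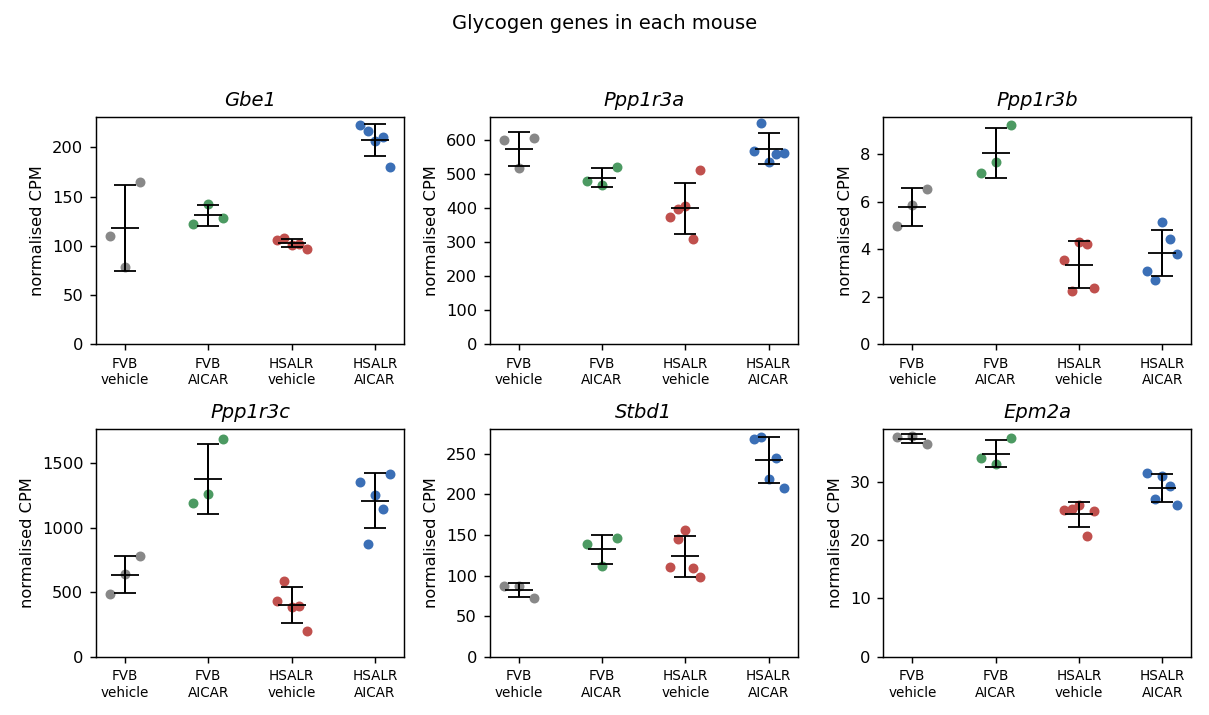
Normalised CPM of *Gbe1*, *Ppp1r3a*, *Ppp1r3b*, *Ppp1r3c*, *Stbd1* and *Epm2a* in each mouse (points) of the 4 groups, with the mean and SD (bars; n = 3 for FVB and n = 5 for HSALR). AICAR-treated HSALR mice lie above vehicle-treated HSALR mice for *Gbe1*, *Ppp1r3a*, *Ppp1r3c* and *Stbd1*, and HSALR mice lie below FVB mice of the same treatment for *Ppp1r3b* and *Epm2a*.

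The 2 AICAR comparisons rest on separate mice. Of the 18 members called higher in HSALR mice and the 16 called higher in FVB mice, 13 were in both lists, which is 72.2% of the first and 81.3% of the second. Over all genes, 863 were called higher in both, which is 40.8% of the 2114 called higher in HSALR mice and 66.3% of the 1301 in FVB mice. The 13 members were *Gpi1*, *Pfkm*, *Aldoa*, *Gapdh*, *Pgk1*, *Eno3*, *Pkm*, *Ldha*, *Slc16a3*, *Gpd1*, *Ugp2*, *Ppp1r3c* and *Stbd1*. Over all 44 genes, 30 (68.2%) had log2 changes of the same sign in both genotypes, against 68.0% of all genes, and no member was called in opposite directions. *Pfkfb3*, *Gpd2*, *Gbe1*, *Ppp1r3a* and *Epm2a* were called higher in HSALR mice only, and *Pgam1*, *Slc16a1* and *Gys1* in FVB mice only. When the difference of the 2 effects was tested, edgeR called 0 of the 44 genes, and 9 had an unadjusted p under 0.05, as did 15.0% of all genes. Over all genes 0.691% were called, 0.207% with the higher effect in HSALR mice and 0.484% with the lower one. DESeq2 called 5 of the 44, namely *Pfkfb3*, *Pgam1*, *Slc16a1*, *Gbe1* and *Ppp1r3a*, where it called 3.46% of all genes, and limma (voom) called 0, where it called 0.542% of all genes.

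**Figure D5:**
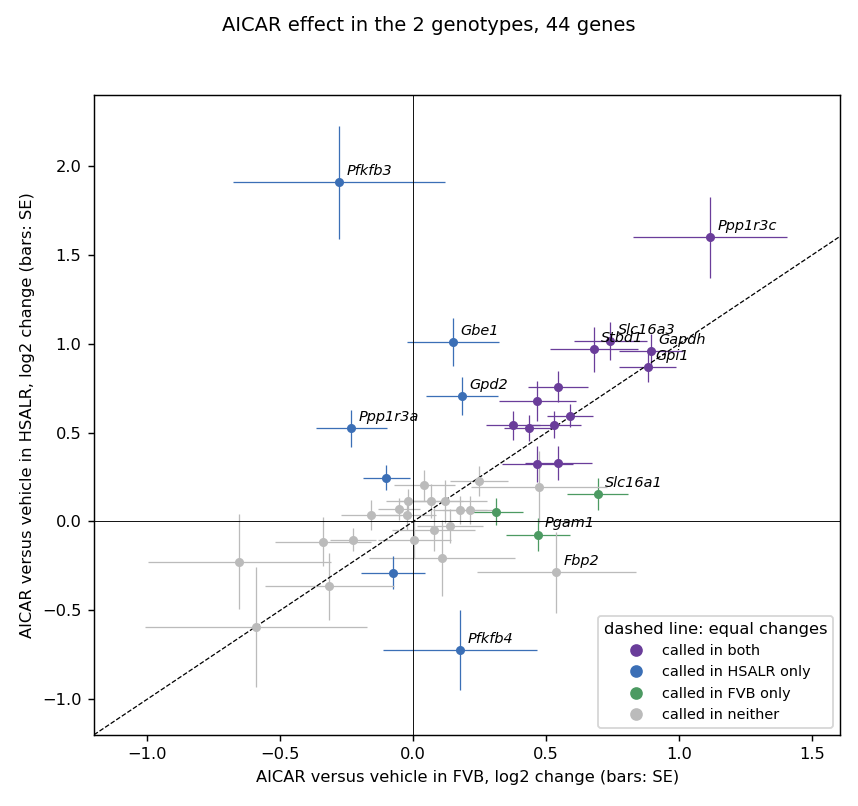
Log2 change with AICAR in FVB mice (x axis) against that in HSALR mice (y axis) for the 44 genes, with SE as bars and an equal change drawn as a dashed line; colours show in which genotype the change was called. The 13 genes called in both lie in the upper right, and *Pfkfb3* lies farthest from the dashed line, at -0.28 and 1.91.

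AICAR-treated HSALR mice were also set beside vehicle-treated FVB mice, a comparison that shares mice with both genotype and treatment comparisons. Of the 44 genes 21 were called, 17 higher and 4 lower, where 37.2% of all genes were called, 20.8% higher and 16.4% lower. Of the markers of other tissues, 6 of 8 of epidermis, 2 of 4 of endothelium, 2 of 4 of fibroblasts and 2 of 3 of Schwann cells were called lower in this comparison, and 1 of 5 of leukocytes higher, and their part in the result was not tested. *Stbd1* (1.55, SE 0.16), *Gapdh* (1.27, SE 0.11), *Gpi1* (0.97, SE 0.099) and *Pgk1* (0.89, SE 0.080) were among the higher ones, and *Ldhb* (-0.99, SE 0.21), *Epm2a* (-0.37, SE 0.078), *Pygb* and *Aldoc* were the lower ones. For *Pfkfb3* the difference from untreated controls was -0.48 (SE 0.35, adjusted p = 0.301), for *Gpd2* -0.075 (SE 0.12, adjusted p = 0.654) and for *Ppp1r3a* 0.0018 (SE 0.12, adjusted p = 0.992). These 3 were among the 11 members called lower in HSALR mice after vehicle, as were *Ldhb* and *Epm2a*, which were still called lower here. Of the others, *Slc16a3* had means of 225 CPM in treated HSALR and 157 CPM in untreated FVB mice, and *Gpd1* 915 and 753 CPM. The means of *Pfkl*, *Gyg* and *Gaa* stayed below those of untreated FVB mice, without a call. *Fbp2* was still higher (log2 change 0.99, SE 0.28, adjusted p = 0.0112) and *Ppp1r3b* was at -0.60 (SE 0.23, adjusted p = 0.0519).

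Shares of isoforms were computed from counts per length within 10 gene families, where *Gpd1* and *Gpd2* are partner enzymes rather than isoforms. The shares do not depend on library scaling, and were tested in 50 comparisons by exact permutation of the mice (two-sided). The smallest p that 5 against 5, 5 against 3 and 3 against 3 mice allow is 0.0079, 0.018 and 0.10. The MCT4 share of the 2 lactate transporters was 71.0% ± 2.5 (SD, n = 5) in vehicle-treated and 81.8% ± 1.58 (SD, n = 5) in AICAR-treated HSALR mice, a difference of 10.8 percentage points (exact permutation p = 0.0079, 0.064 after adjustment over the 50). In FVB mice it was 77.7% ± 4.97 (SD, n = 3) and 78.6% ± 1.82 (SD, n = 3). The *Ldha* share of lactate dehydrogenase was 90.3% ± 2.09 (SD, n = 5) and 93.8% ± 1.28 (SD, n = 5) in HSALR mice (exact permutation p = 0.0079, adjusted 0.064). In FVB mice it was 84.3% ± 6.3 (SD, n = 3) and 90.9% ± 2.81 (SD, n = 3), with overlapping values. The *Gpd1* share of the summed *Gpd1* and *Gpd2* level, with the related *Gpd1l* left out, was 84.6% ± 0.266 (SD, n = 3) in FVB and 87.7% ± 1.36 (SD, n = 5) in HSALR mice after vehicle (exact permutation p = 0.036, adjusted 0.095). In the other 7 families the muscle isoform held 97.1% or more of the level in every mouse, and no share comparison had an adjusted p under 0.05.

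A further 39 genes of the pathway, among them hexokinases, glucose transporters, debranching enzyme and calmodulins, were counted for context, of which 37 were tested. For genotype 5 were called higher and 6 lower after vehicle, 29.7% of the 37 against 26.9% of all genes, and 3 higher and 4 lower after AICAR, 18.9% against 21.8%. For AICAR 9 were called higher and 3 lower in HSALR mice, 32.4% against 26.6%, and 4 higher and 0 lower in FVB mice, 10.8% against 13.2%. *Hk2*, the hexokinase of insulin-responsive muscle, is named after its values were seen. It was 326 to 378 CPM in vehicle-treated and 901 to 1406 CPM in AICAR-treated FVB mice (log2 change 1.60, SE 0.17, adjusted p = 5.48e-05), and 315 to 389 CPM and 642 to 988 CPM in HSALR mice (log2 change 1.24, SE 0.13, adjusted p = 1.24e-05).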

How the data were processed

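RNA from *gastrocnemius* of 16 mice in 4 groups was sequenced as stranded single-end libraries. Per the study's methods, the authors mapped reads to mm10 with STAR 2.5.2a, allowing up to 10 hits and reporting 1 of equally good ones, and counted reads starting in any RefSeq exon. The deposited values are raw counts per Entrez gene, 24454 in all, of which 24374 matched a RefSeq symbol (GRCm38.p6) and 80 did not. Totals were 64890014 to 81987726 counts per library, and libraries of a group differed by more than counting noise (chi-square per degree of freedom 24.1 to 137).

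Genes with low counts were removed by edgeR's filter, which left 15487. TMM factors were 0.906 to 1.06. The main test was edgeR 4.0.16 (quasi-likelihood, 1 mean per group, 16 libraries) in R 4.3.3, for genotype within treatment, AICAR within genotype, their interaction, and AICAR-treated HSALR against vehicle-treated FVB mice. Alternatives were DESeq2 1.42.0, limma 3.58.1 (voom), other scalings and filters, a gene length offset, fits on the 2 groups of a comparison alone, and the omission of single mice. The procedure was tested on simulated data. Isoform shares used exact permutation tests (SciPy 1.17.1, Python 3.11.15). The 16 members given in full were those with the largest called changes of at least 0.5 (log2). The members and lists were chosen with earlier results of these data known. Leaving out libraries with epidermal markers, or with the highest *Myh7* and *Myh4*, was chosen after seeing the data.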

Additional observations from a re-analysis of the deposited data

Results flagged for a closer look

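In groups of 5 mice, a value was singled out when its gap to the nearest other mouse was large for the range of the group (Dixon's criterion). Of 88 groups tested, 7 had such a value, where chance gives about 4.4 at 1 in 20.

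In vehicle-treated HSALR mice, *Pfkp* was 5.78 CPM in S459 against 8.25 to 9.14 in the others, *Gpd1* was 446.1 CPM in S451 against 579 to 626, and *Epm2a* was 20.7 CPM in S458 against 24.9 to 26.0. In AICAR-treated HSALR mice, *Ldha* was 3016 CPM in S460 against 3419 to 3544, *Pygl* was 7.44 CPM in S455 against 5.34 to 5.94, and *Ppp1r3a* was 652 CPM in S455 against 537 to 568. In the same group *Phka1* was 1098 CPM in S463 against 905 to 942.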

How the results depend on the processing

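For genotype after vehicle, 11 to 16 of the 44 genes were called when each mouse was left out, with 11 without S445, and 4 of the 18 calls (*Pfkfb3*, *Gpd2*, *Ppp1r3a* and *Epm2a*) were made in every fit. Over all genes 2826 to 4078 were called. After AICAR the count was 7 to 12, with 7 without S448, and 2214 to 3790 over all genes. For AICAR in HSALR mice it was 16 to 20 (3146 to 4180 over all genes), and 14 of 20 calls were made in every fit. In FVB mice it was 10 to 14 with 10 without S449 (1143 to 1726 over all genes), 8 when only the FVB groups were fitted (7.88% of all genes), and 5 of 16 calls were made in every fit. The difference of the AICAR effects gave 0 to 2 calls (1 without S446 and 2 each without S458, S459 and S460, and 15 to 371 over all genes), 1 with upper-quartile scaling, 1 with total-count scaling and 5 with DESeq2. Leaving out each mouse moved the median log2 change between -0.094 and 0.0102 for genotype after AICAR (above 0 without S449), 0.12 and 0.26 for AICAR in FVB mice (highest without S446), and 0.005 and 0.13 for the difference of effects (highest without S449). With total-count scaling the median for AICAR in HSALR mice was 0.058. The cause of these changes was not tested.

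Without the 6 libraries with epidermal markers, 8 genes were called for genotype after vehicle, 6 of them among the 18, and 9 for AICAR in FVB mice. The medians were then -0.19 for genotype after vehicle, 0.32 for AICAR in HSALR mice and 0.23 for the difference of effects. The change of *Pfkfb4* with genotype after vehicle was -0.0048 and the difference of AICAR effects on *Fbp2* was 0.27, both with turned sign. Without S450 and S449, 14 genes were called for genotype after vehicle (21.9% of all genes), 9 of them among the 18. For AICAR in FVB mice 7 were called (5.41% of all genes), all of them among the 16 of the full data. The difference of effects gave 1 call (0.173% of all genes). All 18 and all 16 calls of the full data kept their sign, and those lost are not named here. The medians were 0.01 for genotype after AICAR, 0.11 for AICAR in FVB mice and 0.13 for the difference.

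Leaving out a single mouse ended the calls given here, all with the sign kept. For genotype after vehicle, calls were lost for *Pfkl* and *Slc16a3* without S446, *Pfkfb1* and *Gyg* without S445 or S450, *Pfkfb4* without S445, S446, S450, S453 or S459, *Gapdh* without S445, S450, S451, S452, S458 or S459, *Pgk1*, *Ppp1r3b* and *Stbd1* without S450, *Ldhb* without S445, S450, S452, S453, S458 or S459, *Gpd1* without S445, S446 or S451, *Gys1* without S446 or S450 and *Gaa* without S445, S446, S451, S452, S453, S458 or S459. For genotype after AICAR, calls were lost for *Pfkl* without S448, S449, S455, S460 or S463, *Gapdh* without S447 or S448, *Pgk1* and *Phka2* without S448, *Ldhb* without S447, S448, S454, S455, S460 or S463, *Epm2a* without S447, S449, S455 or S463 and *Gaa* without S449. For AICAR in HSALR mice, calls were lost for *Pfkfb4* without S453, S459, S454, S455 or S462, *Eno1* without S453, S458, S459, S454, S460 or S462, *Eno3* without S451, S453, S454, S455, S462 or S463 and *Ldha* without S453. For AICAR in FVB mice, calls were lost for *Pfkm* without S445, S450 or S449, *Pgam1* without S445, S447 or S448, *Eno3* without S450, S447, S448 or S449, *Gpd1* without S445, S450, S447 or S449, *Gys1* without S445, S446, S450, S448 or S449, *Ppp1r3c* without S445, S446 or S449 and *Stbd1* without S450 or S449. For AICAR-treated HSALR against vehicle-treated FVB mice, calls were lost for *Aldoc* without S445, S450, S454, S460 or S463, *Pgam2* without S450, *Pygb* without S446, S450, S454, S462 or S463 and *Ppp1r3c* without S445. Among these, the log2 change moved by over 1.5 times for *Gapdh* (0.20), *Ldhb* (-0.39) and *Gyg* (-0.14) without S450 and *Gaa* (-0.17) without S446 for genotype after vehicle, *Gaa* (-0.24) without S449 for genotype after AICAR, *Eno3* (0.29) without S450 for AICAR in FVB mice, and *Pgam2* (0.23) without S450 in the last comparison. No paired analysis was possible because the mice carry unique numbers that the groups do not share.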
